A study of Mus musculus with 7 samples.

Results

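Transcripts of 9 proteins that the retinal pigment epithelium (RPE) releases and of the secreted enzyme autotaxin were followed in RPE of aged *LC3b-/-* mice. The 10 genes were taken by name as secreted products of the RPE, by a rule that uses no measured value but was written with earlier results of these data known: *Ptgds*, *Enpp2* (autotaxin), *Igfbp2*, *Igfbp5*, *Bmp4*, *Frzb*, *Sfrp5*, *Vegfa*, *Serpinf1* and *Cst3*. They are 10 of 52740 gene identifiers in the count table and 10 of the 16990 genes with enough counts to be tested, so no member was lost to the filter on low counts. The controls were 4 C57BL6/J mice (WT, females F1, F2 and F3 and male M1). The *LC3b-/-* mice were 2 females (F1 and F3) and 1 male (M) of a purchased B6;129P2 strain with a germline deletion of *Map1lc3b*, whose genotype label reads LCb-/-. Every mouse was 24 months old by its label and gave its own library, and the labels name no treatment. Strain background and the number in each mouse name differ between the groups along with the deleted gene, and their parts cannot be told apart.

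The RPE is a pigmented monolayer between photoreceptors and choroid. It secretes in a polarized way: growth factors and protease inhibitors that maintain the choriocapillaris leave mostly at the base, whereas carrier proteins and lipid enzymes also reach the matrix around the photoreceptors. VEGF and PEDF, made by *Vegfa* and *Serpinf1*, are the classical pair of a vessel growth factor and its counterweight. The binding proteins of insulin-like growth factors (IGF), BMP4 and the secreted frizzled-related proteins each tune a signal by holding or supplying its ligand outside the cell.

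The 7 libraries held 24495952 to 35616134 counts, with a biological coefficient of variation of 0.398 between mice. *Map1lc3b* had 2778 to 4444 counts in WT and 168 to 332 in *LC3b-/-*, so every *LC3b-/-* library lay far below every WT library. Levels below are CPM, counts scaled to a common library size by TMM. With edgeR's quasi-likelihood test and Benjamini-Hochberg adjustment over the 16990 genes, a gene was called where its adjusted p lay under 0.05 and it differed at least 1.5-fold, and 0.235% of genes met this. The exact two-sided permutation test over the 35 assignments of libraries cannot go below p = 0.0286.

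The libraries differed in make-up as well as genotype. The summed CPM of 16 RPE markers ran from 32945 to 52061 in WT and from 14632 to 31086 in *LC3b-/-*, and 15 of the 16 were lower on average in *LC3b-/-*. None of the 16 was at 0, although *Best1* was low at 0.861 to 1.67 CPM in WT and 1.15 to 1.71 CPM in *LC3b-/-*. All 12 markers of ocular surface epithelium were higher on average. Their sums were 12.5 to 2537 CPM in WT and 3583 to 26272 CPM in *LC3b-/-*. *Dsg3* had no count in WT F3. *Krt12* overlapped, with 0.0878 to 786 CPM in WT and 2313, 2.41 and 12.4 CPM in *LC3b-/-* F1, F3 and M. Photoreceptor sums overlapped widely (277 to 22567 and 99.8 to 7733 CPM). The part that these markers play in the results on the secreted factors was not tested, and fewer cells of a type and less RNA per cell cannot be told apart in bulk RNA.

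**Figure D1:**
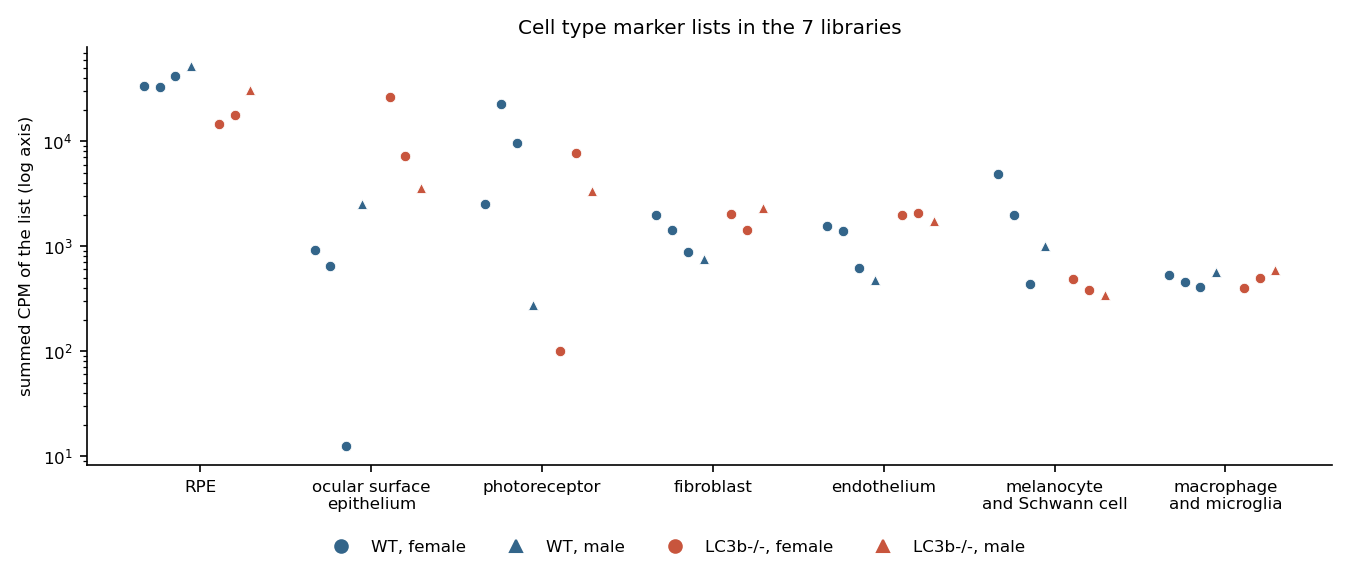
Summed CPM of 7 cell type marker lists (log axis), 1 point per library, circles for females and triangles for males, WT in blue and LC3b-/- in red. The 4 WT libraries lie above the 3 LC3b-/- libraries for the RPE list (32945 to 52061 against 14632 to 31086 CPM) and below them for ocular surface epithelium (12.5 to 2537 against 3583 to 26272 CPM).

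Of the 10 secreted factors, *Igfbp2* was the only transcript called with edgeR: its level rose 7.44-fold in *LC3b-/-* RPE. *Ptgds*, *Enpp2* and *Bmp4* were lower in each *LC3b-/-* library than in each WT library, at 60.0%, 43.4% and 59.3% of WT, and were called by DESeq2's Wald test but not by edgeR. *Cst3*, *Vegfa* and *Sfrp5* had lower and *Serpinf1*, *Igfbp5* and *Frzb* higher fitted means in *LC3b-/-*, and in these 6 the groups overlapped. An unadjusted edgeR p under 0.05 was found for 3 of 10 members, beside 24.1% of all genes (13.5% higher and 10.6% lower). That count was 7 without *LC3b-/-* M, 5 without WT F1 and 2 without *LC3b-/-* F3. Over all genes it was 4607 of 17553, 4789 of 16753 and 3115 of 17368 in those fits. The count of members called with edgeR was 0 without WT F3 or without *LC3b-/-* F3 and 2 without *LC3b-/-* M. Over all genes 16, 11 and 485 were called in those fits. Groups did not overlap for 4 of 10, 1 higher and 3 lower, beside 22.3% of all genes (12.0% higher and 10.3% lower). DESeq2 called 4 of 10, 1 higher and 3 lower, beside 10.7% of all genes (7.09% and 3.63%). The median log2 fold change was −0.51 over the members and 0.01 over all genes tested.

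**Figure D2:**
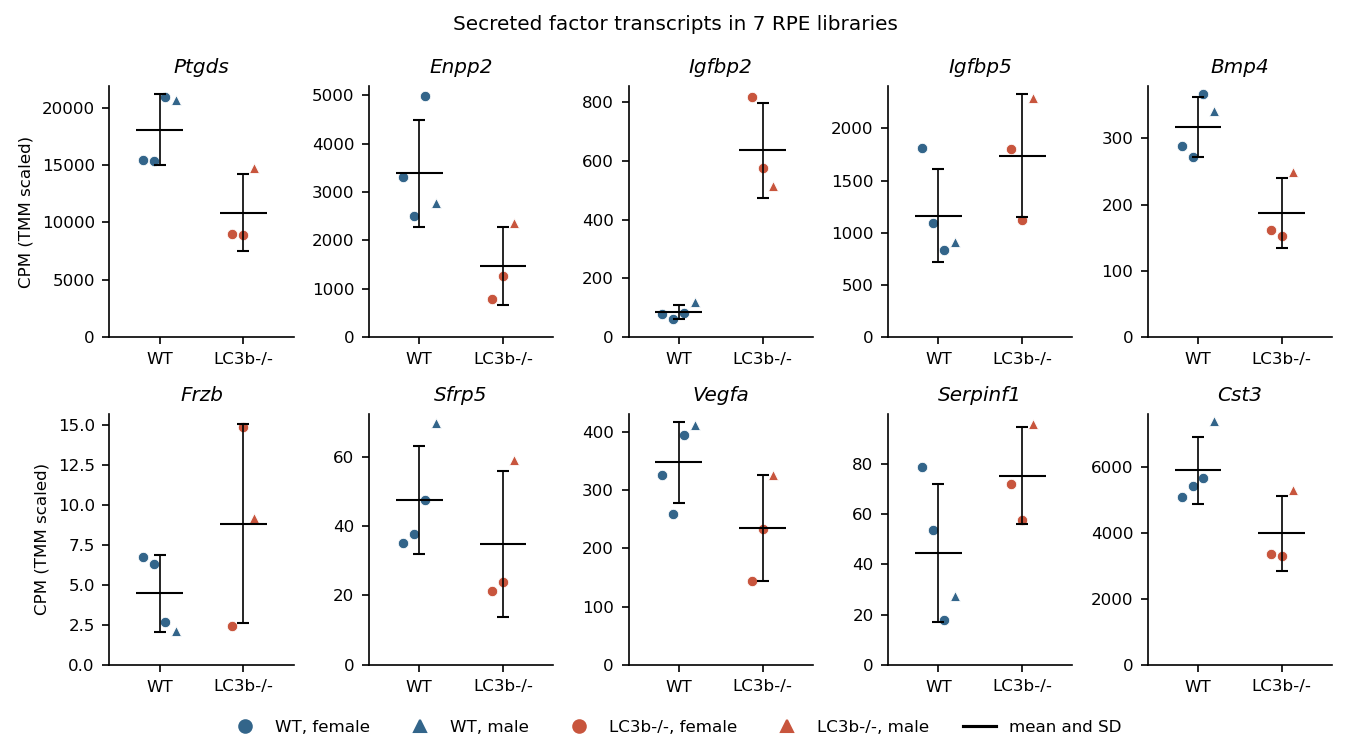
CPM of the 10 transcripts in each library (vertical axes start at 0), circles for females and triangles for males, with the mean and SD of 4 WT and 3 LC3b-/- libraries. Igfbp2 lies at 62.3 to 118 CPM in WT and 513 to 816 CPM in LC3b-/-, and Ptgds, Enpp2 and Bmp4 lie lower in all 3 LC3b-/- libraries than in any WT library.

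Per kilobase of the canonical transcript, the level of *Ptgds* was the highest in WT RPE (9725 ± 1674 CPM per kb, SD, n = 4), followed by *Cst3* (6357 ± 1101) and *Enpp2* (709.6 ± 232). *Igfbp5* (194 ± 74.5) came next. The levels of *Bmp4* (113.5 ± 16.1), *Vegfa* (100.2 ± 20.1) and *Igfbp2* (64.6 ± 18.0) followed, and each overlapped its neighbour in this order. *Sfrp5* (25.0 ± 8.23) and *Serpinf1* (18.3 ± 11.3) overlapped as well, and *Frzb* was the lowest (1.42 ± 0.758). In *LC3b-/-* RPE *Igfbp2* moved from the 7th to the 3rd place (480.9 ± 121 CPM per kb, n = 3), where its libraries overlapped those of *Enpp2* (308 ± 168). With the length of all annotated exons in place of the canonical transcript, *Cst3* stood first and *Ptgds* second in both genotypes.

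Start sites and the sequence before them were taken from a RefSeq table (GRCm38.p6), in which 9 of the 10 genes were matched; *Enpp2* was not analysed here in this respect. Stretches are printed for *Igfbp2*, the member that rose, for *Igfbp5*, its neighbour and paralog, and for *Bmp4*, which lay lower in all *LC3b-/-* libraries. Each runs from 250 to 31 bases before the start site, and capitals mark an E-box (CACGTG, bound by basic helix-loop-helix factors such as MITF and TFEB) or an SP1 box (GGGCGG), searched on both strands.
Igfbp2, chr1:72824230-72824449, + strand: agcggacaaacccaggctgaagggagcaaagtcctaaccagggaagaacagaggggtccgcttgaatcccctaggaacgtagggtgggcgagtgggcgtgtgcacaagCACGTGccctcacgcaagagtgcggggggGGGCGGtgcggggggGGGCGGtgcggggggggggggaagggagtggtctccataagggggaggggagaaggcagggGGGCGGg
Igfbp5, chr1:72874896-72875115, - strand: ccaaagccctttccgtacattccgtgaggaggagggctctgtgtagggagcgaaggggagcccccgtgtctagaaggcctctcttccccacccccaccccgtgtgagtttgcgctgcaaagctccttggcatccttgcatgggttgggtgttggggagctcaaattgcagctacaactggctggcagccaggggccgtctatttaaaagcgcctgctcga
Bmp4, chr14:46390700-46390919, - strand: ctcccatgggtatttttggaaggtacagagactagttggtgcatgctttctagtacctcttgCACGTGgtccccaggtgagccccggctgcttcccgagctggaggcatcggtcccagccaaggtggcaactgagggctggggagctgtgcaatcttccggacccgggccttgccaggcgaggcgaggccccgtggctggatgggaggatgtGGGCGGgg

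The *Igfbp2* stretch held 1 E-box, 142 bases before the start site, and 3 SP1 boxes, and that of *Bmp4* 1 E-box at 188 bases and 1 SP1 box. Over all 32851 windows of 250 bases, 6.02% held an E-box and 32.7% an SP1 box. Among the 11 windows of the members (*Igfbp2* and *Vegfa* have 2 each), 2 held an E-box and 7 an SP1 box, and the window of *Igfbp5* neither. The 2 with an E-box are those printed for *Igfbp2* and *Bmp4*. The window of *Ptgds*, which also lay lower in all *LC3b-/-* libraries, and the other window of *Igfbp2* held neither and are not printed. CCAAT stood in 3 of the 11 windows (33.8% of all windows). TATAAA (12.4% of all), the bicoid site TAATCC of the OTX2 and CRX factors (6.25%) and the M-box TCATGTG (3.25%) stood in none. The SP1 box holds only G and C bases. These made up 51.6% (*Serpinf1*) to 67.2% (*Igfbp2*) of the member windows, beside a median of 52.4% over all windows. The part of base content in these counts was not tested. A match is a description of letters and was not tested for binding.

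IGF-binding proteins hold IGF1 and IGF2 in the extracellular fluid and set how much reaches the receptor. *Igfbp2* (ENSMUSG00000039323; GRCm39 chromosome 1, 72863606 to 72891634, + strand) is made by many ocular epithelia. Its level was 77.2 CPM in WT F1, 62.3 in F2, 83.4 in F3 and 118 in M1, against 816, 575 and 513 CPM in *LC3b-/-* F1, F3 and M. The lowest *LC3b-/-* library thus stood well above the highest WT library. With edgeR the log2 fold change was 2.90 (SE 0.27, adjusted p = 0.00909), rank 14 among all genes by p, and DESeq2 and limma's voom called it too (adjusted p = 4.28e-21 and 0.00799). Leaving out single libraries gave log2 fold changes of 2.67 to 3.09, and edgeR no longer called it without WT F3 (adjusted p = 0.0591) or without *LC3b-/-* F3 (adjusted p = 0.0642).

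The order of the *LC3b-/-* libraries for *Igfbp2*, F1 above F3 above M, was that of the ocular surface markers. It was also that of 7 ciliary and iris epithelium markers (sums of 647, 432 and 197 CPM). Their sums were 274 to 445 CPM in WT, so the groups overlapped, and *LC3b-/-* M had the lowest sum of the 7 libraries. *Slc4a10* of that list had the reverse order (5.28, 6.85 and 10.3 CPM). The RPE marker sum ran the other way (14632, 17613 and 31086 CPM). Over the 7 libraries log2 CPM of *Igfbp2* had a correlation of 0.736 with the sum of the ocular surface markers. Among the *LC3b-/-* libraries it varied 1.59-fold, whereas the sum of those markers varied 7.33-fold. WT M1 had a higher ocular surface marker sum (2537 CPM) than the other WT libraries and 118 CPM of *Igfbp2*, while *LC3b-/-* M had 3583 CPM of the markers and 513 CPM of *Igfbp2*. WT F3 had the lowest sum of these markers (12.5 CPM) but 83.4 CPM of *Igfbp2*, above WT F1 and F2 (77.2 and 62.3 CPM). The part of the ocular surface markers in the level of *Igfbp2* was not tested. Set against the summed RPE markers, which do not include it, *Igfbp2* equalled 0.189% to 0.229% of their sum in the 4 WT libraries and 1.65% to 5.58% in the 3 *LC3b-/-* libraries.

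*Igfbp5* (chromosome 1, 72897091 to 72914043, - strand) lies tail to tail with *Igfbp2*, 5456 bases away, and encodes the paralog that also binds bone and matrix proteins. Its level was 1817, 1097, 837 and 913 CPM in the WT libraries and 1806, 1120 and 2291 CPM in the *LC3b-/-* libraries, in the order given above. WT F1 and *LC3b-/-* F1 were nearly equal, and the groups overlapped. The log2 fold change was 0.58 (SE 0.35, edgeR adjusted p = 0.348), and the exact permutation p was 0.2. Leaving out *LC3b-/-* M gave 0.325, and leaving out WT F1 gave 0.87. Over the 7 libraries log2 CPM of *Igfbp5* had a correlation of 0.939 with the sum of 12 fibroblast markers, a list with 758 to 1993 CPM in WT and 1424 to 2332 CPM in *LC3b-/-*.

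In the IGF list (median log2 fold change 0.38), 20 genes were tested and 8 had an unadjusted edgeR p under 0.05, 7 higher and 1 lower. *Igfbp2* was the only one called with edgeR, and DESeq2 called 4, all higher. *Htra1*, a secreted protease that cleaves IGF-binding proteins, had 62.7 to 75.4 CPM in WT and 150, 136 and 113 CPM in *LC3b-/-* F1, F3 and M, with no overlap (log2 fold change 0.94, SE 0.13, edgeR adjusted p = 0.0530). *Stc1*, which blocks the pappalysin proteases of the same pathway, had 8.77 to 19.4 CPM in WT and 33.4 to 49.3 CPM in *LC3b-/-* (1.43, SE 0.30, edgeR adjusted p = 0.0906). The paralog *Igfbp3* had 14.5 to 81.6 and 144 to 168 CPM, again without overlap (1.59, SE 0.51, edgeR adjusted p = 0.136). *Igfbp4*, *Igfbp6* and *Igfbp7* overlapped between groups, with log2 fold changes of 0.37, 0.38 and 0.22. Among ligands and receptors, *Igf1* had a log2 fold change of 0.45 and *Igf2* of −0.27. *Igf2r* lay higher (0.50) and *Igf1r* lower (−0.35) in every *LC3b-/-* library. None of these 4 was called with either tool. *Igf2r* and *Igf1r* had DESeq2 adjusted p of 0.0136 and 0.0445 and missed that call only by the 1.5-fold threshold.

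**Figure D3:**
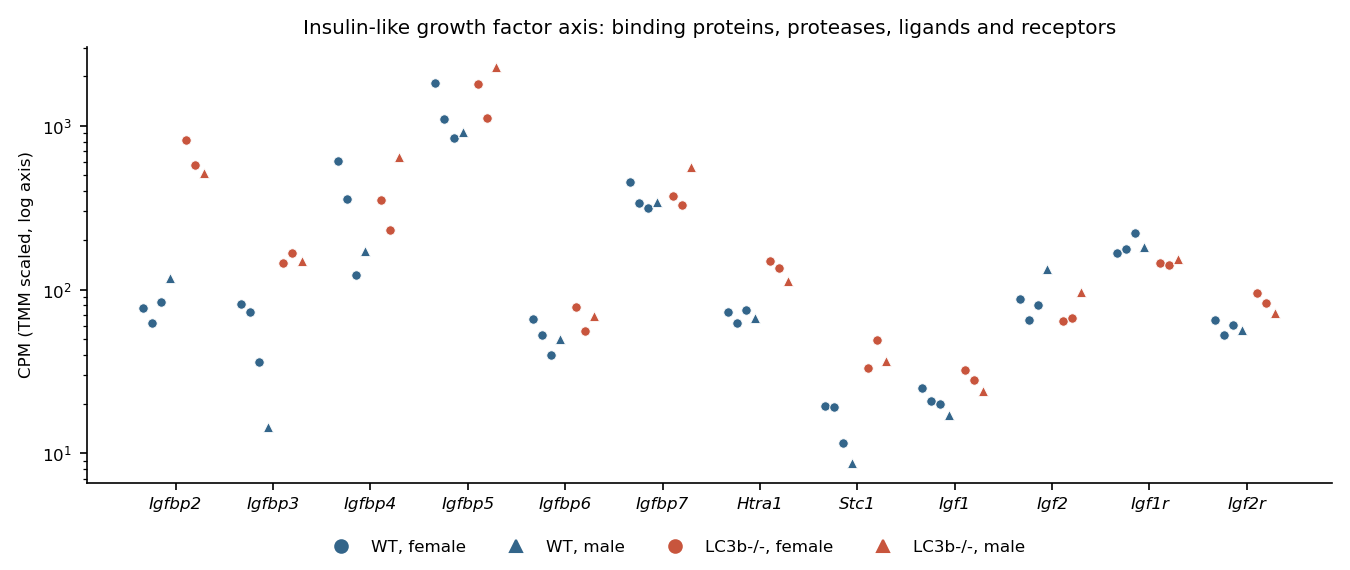
CPM (log axis) of 12 genes of the IGF axis in each library, circles for females and triangles for males, WT in blue and LC3b-/- in red. Igfbp2, Igfbp3, Htra1, Stc1 and Igf2r are higher in all 3 LC3b-/- libraries than in any WT library, Igf1r is lower, and the other genes overlap.

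Lipocalin-type prostaglandin D synthase, encoded by *Ptgds*, makes prostaglandin D2 and carries retinoids and other small lipids in the fluid around photoreceptors. *Ptgds* (ENSMUSG00000015090; chromosome 2, 25352795 to 25362601, - strand) was the 4th most abundant transcript in WT and the 7th in *LC3b-/-*, with 1.79% and 1.10% of all counts. Levels were 15459, 15345, 20905 and 20683 CPM in the WT libraries and 8993, 8888 and 14707 CPM in the *LC3b-/-* libraries. The *LC3b-/-* male came within a few percent of the lower WT females, and both *LC3b-/-* females were far below them. The log2 fold change was −0.74 (SE 0.33) with an adjusted p of 0.226 in edgeR and 0.0212 in DESeq2, and the exact permutation p was 0.0286.

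Among 24 tested genes of prostaglandin synthesis, transport and reception (median log2 fold change 0.30), 5 were higher and 4 lower at an unadjusted edgeR p under 0.05, and none was called with edgeR. DESeq2 called 2 higher and 3 lower. *Slco2a1*, the prostaglandin uptake transporter, had 8.84 to 23.3 CPM in WT and 35 to 47.2 CPM in *LC3b-/-* (log2 fold change 1.27, SE 0.34, edgeR adjusted p = 0.103). The prostaglandin reductase *Ptgr2* (−0.52) and the carbonyl reductase *Cbr1* (−0.54) lay lower in all *LC3b-/-* libraries, with edgeR adjusted p of 0.104 and 0.115. The hematopoietic synthase *Hpgds* overlapped at 1.80 to 9.38 and 6.07 to 24.7 CPM, and so did the prostaglandin E synthase *Ptges* (144 to 210 and 96.1 to 154 CPM). The cyclooxygenases *Ptgs1* and *Ptgs2* had log2 fold changes of 0.71 and 0.93 and overlapped, and that of *Ptgs2* was 0.0985 once *LC3b-/-* M was left out and 1.75 once WT F1 was. Both receptors for prostaglandin D2 were too low to test, *Ptgdr* with 0 to 18 counts and *Ptgdr2* with 0 or 1 count per library.

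Autotaxin turns lysophosphatidylcholine into lysophosphatidic acid, a lipid messenger. Its gene *Enpp2* (ENSMUSG00000022425; chromosome 15, 54701324 to 54816288, - strand) had 3304, 2504, 4975 and 2774 CPM in the WT libraries and 784, 1272 and 2351 CPM in the *LC3b-/-* libraries. The closest pair, WT F2 and *LC3b-/-* M, were 2504 and 2351 CPM, so the groups are only just apart. The log2 fold change of −1.21 (SE 0.43) was the lowest among the members, with an unadjusted p of 0.0244 and an adjusted p of 0.157 in edgeR. DESeq2 called it (adjusted p = 0.0184), and the exact permutation p was 0.0286. It ranged from −0.91 without *LC3b-/-* F1 to −1.72 without *LC3b-/-* M and was not called with edgeR in either.

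Of the 12 genes of lysophosphatidic acid synthesis, reception and removal (median log2 fold change 0.58), 5 were higher and 2 lower at an unadjusted edgeR p under 0.05. No gene was called with edgeR, and DESeq2 called 3 higher and 1 lower, the lower one being *Enpp2*. The phospholipase genes *Liph*, whose product makes the same messenger from phosphatidic acid, and *Pla1a*, whose product acts on phosphatidylserine, lay higher in all *LC3b-/-* libraries. *Pla1a* had 2.32 to 6.44 CPM in WT and 6.87 to 24.2 CPM in *LC3b-/-* (log2 fold change 2.03, SE 0.49, edgeR adjusted p = 0.0960), and *Liph* had 0.0374 to 1.26 and 1.83 to 20.8 CPM (3.72, SE 1.06, edgeR adjusted p = 0.112). For *Liph* the *LC3b-/-* libraries stood in the order F1 above F3 above M, as for the ocular surface markers and the ciliary and iris markers. The receptor gene *Lpar5* followed this order too (5.24, 2.31 and 0.827 CPM, against at most 0.269 CPM in WT). The receptor gene *Lpar3* lay lower in all *LC3b-/-* libraries (−0.71, SE 0.27, edgeR adjusted p = 0.175), and *Lpar1* and *Lpar6* overlapped (−0.21 and 0.50).

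Autotaxin belongs to the nucleotide pyrophosphatase family, whose other members mostly cleave nucleotides. Of 6 tested (median log2 fold change −0.21), 2 were higher and 1, *Enpp2* itself, lower at an unadjusted edgeR p under 0.05, none was called with edgeR, and DESeq2 called these 3. *Enpp3* had 1.20 to 6.50 CPM in WT and 188, 102 and 18.4 CPM in *LC3b-/-* F1, F3 and M (log2 fold change 4.40, SE 0.84, edgeR adjusted p = 0.0842). This order was again that of the ocular surface markers and of the ciliary and iris markers. *Enpp1*, whose product makes pyrophosphate, had 4.12 to 10.6 and 11.5 to 23.0 CPM (1.44, SE 0.39, edgeR adjusted p = 0.105). *Enpp4* (−0.22) and *Enpp5* (−0.39) overlapped between groups.

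BMP4 is a ligand of the bone morphogenetic protein receptors and a known RPE product. *Bmp4* (ENSMUSG00000021835; chromosome 14, 46620250 to 46636745, - strand) had 288, 271, 367 and 341 CPM in the WT libraries and 162, 153 and 249 CPM in the *LC3b-/-* libraries. All *LC3b-/-* values were below all WT values, with the *LC3b-/-* male nearest to them. With edgeR the log2 fold change was −0.75 (SE 0.21, adjusted p = 0.112), and without *LC3b-/-* M it was −1.01 and called (adjusted p = 0.0465). DESeq2 called it with all libraries (adjusted p = 0.00773), and the exact permutation p was 0.0286. The antisense genes at the locus include *Gm15222* with 438 to 1183 counts, and whether the quantification used strand is not stated.

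The ligand *Bmp2* and the antagonist *Nog* (noggin) lay lower with *Bmp4*. *Bmp2* had 65.7 to 83.4 CPM in WT and 48.5 to 53.2 CPM in *LC3b-/-* (log2 fold change −0.59, SE 0.12, edgeR adjusted p = 0.0897), and *Nog* had 140 to 195 and 61.1 to 115 CPM (−1.02, SE 0.26, edgeR adjusted p = 0.0982). DESeq2 called both. The signal carrier *Smad1* lay higher (0.76, SE 0.20, edgeR adjusted p = 0.102), and *Bmp7* and the target genes *Id1* and *Id3* overlapped (−0.13, 0.78 and 0.50). Of 34 tested genes of the BMP list (median log2 fold change 0.18), 3 were higher and 3 lower at an unadjusted edgeR p under 0.05, none was called with edgeR, and DESeq2 called 1 higher and 3 lower.

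*Frzb* and *Sfrp5* encode secreted frizzled-related proteins, which bind Wnt ligands outside the cell. *Sfrp5* (chromosome 19, 42186410 to 42190691) had 35.2, 37.7, 47.4 and 69.5 CPM in WT and 21.4, 23.8 and 59.1 CPM in *LC3b-/-*. Both males exceeded the females of their group, and the groups overlapped (log2 fold change −0.45, SE 0.41, edgeR adjusted p = 0.529). It was −1.07 without *LC3b-/-* M and −0.20 without *LC3b-/-* F1. *Frzb* (chromosome 2, 80242313 to 80278304) was the least abundant member, with 6.73, 6.34, 2.70 and 2.15 CPM in WT and 2.42, 14.9 and 9.22 CPM in *LC3b-/-* (0.98, SE 0.64, edgeR adjusted p = 0.379). *LC3b-/-* F1 lay among the WT libraries, and without *LC3b-/-* F3 the log2 fold change was 0.34.

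In the Wnt list (median log2 fold change 0.18), 45 genes were tested, of which 6 were higher and 1 lower at an unadjusted edgeR p under 0.05. Neither direction had an edgeR call, and DESeq2 called 1, the paralog *Sfrp2*, which had 3.93 to 10.8 CPM in WT and 14.8 to 19.3 CPM in *LC3b-/-* (log2 fold change 1.61, SE 0.39, edgeR adjusted p = 0.0960). *Sfrp1* overlapped (−0.20), as did the target gene *Axin2* (−0.40) and the ligand *Wnt9a* (0.69).

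*Vegfa* (ENSMUSG00000023951; chromosome 17, 46327919 to 46343309) had 325, 259, 393 and 411 CPM in the WT libraries and 144, 233 and 325 CPM in the *LC3b-/-* libraries. *LC3b-/-* M equalled WT F1, and *LC3b-/-* F1 had the lowest value. The log2 fold change was −0.57 (SE 0.29, edgeR adjusted p = 0.279), and the exact permutation p was 0.143. Without *LC3b-/-* M it was −0.89 and without *LC3b-/-* F1 −0.32. Its counterpart *Serpinf1*, which encodes pigment epithelium-derived factor (PEDF), had 78.9, 53.9, 17.8 and 27.4 CPM in WT and 72.1, 57.7 and 96.0 CPM in *LC3b-/-* (chromosome 11, 75299998 to 75322362; 0.76, SE 0.48, edgeR adjusted p = 0.365), and its log2 fold change was 1.19 without WT F1 and 0.48 without WT F3. *Serpinf1* varied 4.44-fold among the WT libraries, more than between the group means. On the opposite strand *Smyd4* overlaps it, with 327 to 637 counts. The levels of *Serpinf1* had a correlation of 0.944 with the fibroblast marker sum, and the genes most like it were *Col1a2* (r = 0.998), *Tgtp2* and *Col1a1*. Both collagen genes are in that marker list.

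Among 22 genes of VEGF signalling and its hypoxic control (median log2 fold change 0.17), 4 were higher and 4 lower at an unadjusted edgeR p under 0.05, with no edgeR call and 2 higher and 1 lower DESeq2 calls. *Egln1*, the oxygen-sensing prolyl hydroxylase, had 105 to 107 CPM in all 4 WT libraries and 65.5, 68.6 and 83.8 CPM in *LC3b-/-* (log2 fold change −0.55, SE 0.12, edgeR adjusted p = 0.0906). Its DESeq2 adjusted p was 0.000232, and its DESeq2 log2 fold change of −0.57 fell just short of 1.5-fold. *Vegfb* lay lower in every *LC3b-/-* library (−0.47, edgeR adjusted p = 0.108), and the glycolytic regulator *Pfkfb3* lay higher (1.33, edgeR adjusted p = 0.105). The endothelial receptor genes *Flt1* and *Kdr* had log2 fold changes of 0.84 and 0.95 with edgeR adjusted p of 0.248 and 0.265, beside endothelial marker sums of 480 to 1560 CPM in WT and 1738 to 2066 CPM in *LC3b-/-*; both genes are in that marker list. In the PEDF list (median log2 fold change 0.40) 0 of 7 genes had an unadjusted edgeR p under 0.05 and 0 were called with DESeq2. Its receptors had log2 fold changes of 0.21 (*Pnpla2*), 0.90 (*Plxdc2*) and 0.50 (*Rpsa*).

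Cystatin C, the product of *Cst3*, inhibits cysteine cathepsins and is secreted by the RPE in large amounts. *Cst3* (ENSMUSG00000027447; chromosome 2, 148713635 to 148717887) had 5088, 5425, 5638 and 7369 CPM in the WT libraries and 3341, 3307 and 5283 CPM in the *LC3b-/-* libraries. Only *LC3b-/-* M reached the range of WT, by exceeding WT F1. The log2 fold change was −0.56 (SE 0.28) with an adjusted p of 0.258 in edgeR and 0.0799 in DESeq2, and the exact permutation p was 0.0571. In the cystatin and cathepsin list (median log2 fold change 0.09), 4 of 16 genes were higher and 1 lower at an unadjusted edgeR p under 0.05, with none called in edgeR and 2 higher in DESeq2. *Ctsh* (38.6 to 58.2 CPM in WT and 72.8 to 121 CPM in *LC3b-/-*) and the intracellular inhibitor *Cstb* (38.9 to 54.8 and 64.6 to 104 CPM) had log2 fold changes of 0.96 and 0.85 with edgeR adjusted p of 0.0951 and 0.0952. *Ctsf* lay lower (−0.37), *Ctss* overlapped (0.99), and *Ctsb*, a target protease of cystatin C, was near equal (0.05, SE 0.18).

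Of 34 tested genes for other proteins released by the RPE (median log2 fold change −0.07), 4 were higher and 1 lower at an unadjusted edgeR p under 0.05, none was called with edgeR, and 3 were called with DESeq2, all higher. *Mfge8*, a bridge between phagocytes and outer segments, had 65.7 to 175 CPM in WT and 211 to 338 CPM in *LC3b-/-* (log2 fold change 1.22, SE 0.32, edgeR adjusted p = 0.103). *Tgfb1* (1.06) and *Thbs1* (0.80) lay higher in all *LC3b-/-* libraries, with edgeR adjusted p of 0.135 and 0.144. The abundant carrier and matrix genes *Ttr* (−0.73), *Trf* (−0.52) and *Timp3* (−0.56) overlapped.

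**Figure D4:**
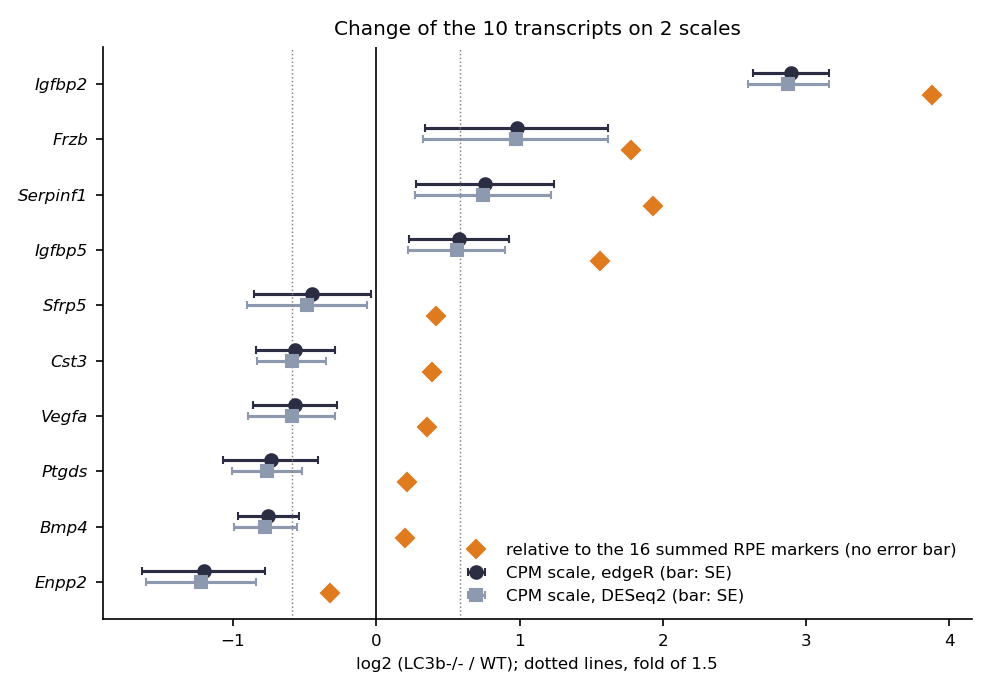
Log2 ratio of LC3b-/- to WT for the 10 transcripts (0 is no difference; dotted lines, a fold of 1.5): edgeR and DESeq2 estimates on the CPM scale with SE, and the difference of mean log2 ratios to the 16 summed RPE markers without error. Igfbp2 stands apart at 2.90 and 3.88; Bmp4, Cst3, Ptgds, Sfrp5 and Vegfa are below 0 on the CPM scale and above 0 relative to the markers.

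Because RPE markers were lower in *LC3b-/-* libraries, the members were also set against their sum, a comparison chosen after the data were seen. The log2 of that sum differed by −0.98 between the groups (exact permutation p = 0.0286). A transcript with equal CPM in both groups therefore lies higher in *LC3b-/-* on this scale. The values and p-values below carry this shift, and the share of all genes without overlap on this scale was not computed. The sign turned for *Ptgds* (log2 difference 0.21), *Bmp4* (0.20), *Cst3* (0.39), *Vegfa* (0.35) and *Sfrp5* (0.42). None of the 10 members is among the 16 markers, so the percentages are ratios to the sum and not shares of it. *Ptgds* equalled 45.8%, 46.6%, 50.5% and 39.7% of the marker sum in the WT libraries and 61.5%, 50.5% and 47.3% in the *LC3b-/-* libraries, so the groups overlapped. *Bmp4* overlapped too, at 0.655% to 0.887% in WT and 0.80% to 1.11% in *LC3b-/-*. *Enpp2* kept its sign (−0.32) but overlapped, with 9.79%, 7.60%, 12.0% and 5.33% in WT and 5.36%, 7.22% and 7.56% in *LC3b-/-* (exact permutation p = 0.371). *Cst3* (13.6% to 16.5% in WT and 17.0% to 22.8% in *LC3b-/-*) and *Vegfa* (0.786% to 0.964% and 0.986% to 1.32%) no longer overlapped and were higher in *LC3b-/-* on this scale, each with an exact permutation p of 0.0286. *Sfrp5* did not overlap either (0.104% to 0.134% in WT and 0.135% to 0.190% in *LC3b-/-*, exact permutation p = 0.0571). *Igfbp2* was 14.7-fold higher, and *Igfbp5* and *Serpinf1* were 2.95-fold and 3.82-fold higher without overlap (exact permutation p = 0.0286, 0.0571 and 0.0571). *Ttr* and *Rgr* carry much of the marker sum, which therefore weights abundant markers most. The markers were not lower to the same degree. Log2 fold changes were −0.73 for *Ttr* and −1.10 for *Rgr*, but −0.42 for *Pmel*, −0.31 for *Mitf*, −0.28 for *Tyr* and −0.21 for *Tyrp1*. *Best1* had 0.19. The turned signs therefore hold for this sum, and ratios to single markers or to other sets of them were not computed.

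**Figure D5:**
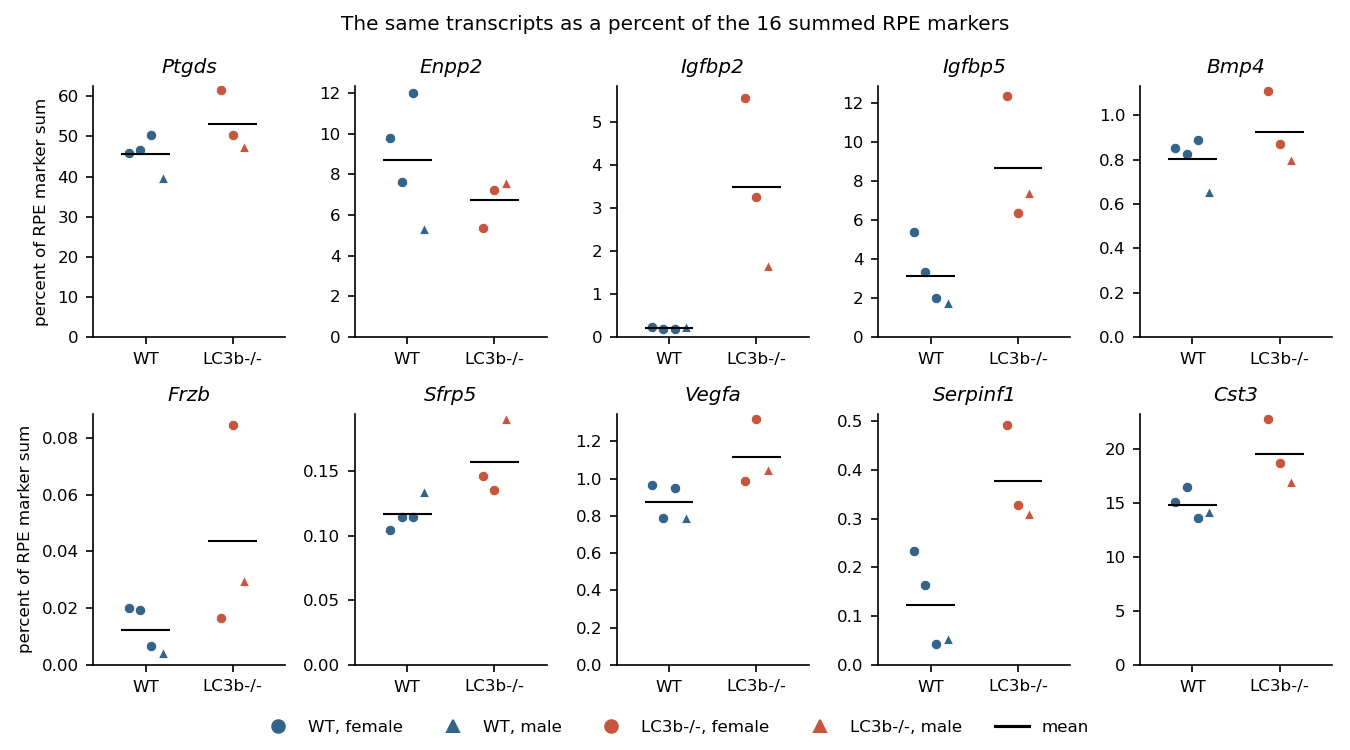
Each transcript as a percent of the summed CPM of 16 RPE markers in the same library (vertical axes start at 0), circles for females and triangles for males, with the group mean. Ptgds (39.7% to 50.5% in WT, 47.3% to 61.5% in LC3b-/-), Enpp2 and Bmp4 overlap between groups, and Igfbp2 (0.189% to 0.229% against 1.65% to 5.58%) does not.

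Correlations over the 7 libraries are given as a description, since the libraries of a group share genotype and make-up. Log2 CPM of *Cst3*, *Ptgds*, *Bmp4*, *Vegfa*, *Sfrp5* and *Enpp2* had correlations of 0.979, 0.978, 0.961, 0.929, 0.900 and 0.891 with the RPE marker sum. For *Igfbp5*, *Frzb*, *Serpinf1* and *Igfbp2* the same correlation was −0.424, −0.319, −0.556 and −0.780. *Bmp4* and *Ptgds* varied together most closely of the members (r = 0.993). Among 9906 genes with a mean of at least 10 CPM, the 3 most like *Igfbp2* were *Pcolce2* (r = 0.989), *Riok3* and *Rasl11b*, those most like *Enpp2* were *Jam3* (0.990), *Ilvbl* and *Arhgef10l*, and those most like *Bmp4* were *Nog* (0.995), *Tmem175* and *Tmem60*. *Ptgds* was most like *Ccdc47* (0.999), *Decr1* and *Mmachc*, *Cst3* most like *Trappc3* (0.995), *Ttr* and *Fez2*, and *Vegfa* most like *Mosmo* (0.997), *Lrp8* and *Six3os1*. For *Igfbp5* these were *Ppp1r2* (0.989), *Gcc1* and *Bicc1*, for *Sfrp5* they were *Rpa1* (0.996), *Fbxo33* and *Abhd5*, and for *Frzb* they were *Fgf2* (0.973), *Rbm15* and *4930581F22Rik*.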

How the data were processed

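Polyadenylated RNA of 7 RPE preparations was sequenced by the authors from a stranded kit as single reads. RPE was released with hyaluronidase and trypsin after cornea, lens and ciliary body had been removed. The deposited values are estimated counts per gene, which the authors obtained with Salmon 1.9.0 on GENCODE vM26 (GRCm39) and tximeta 1.16.1, as whole numbers without scaling to depth; 0 columns were unused. Separate mice are the replicates. The main test, in edgeR 4.0.16 under R 4.3.3, used filterByExpr, TMM and the quasi-likelihood F-test without covariates, with Benjamini-Hochberg adjustment over 16990 genes. The SE printed with an edgeR fold change was derived from the test. It is the absolute log2 fold change fitted without a prior count, divided by the square root of the quasi-likelihood F. Alternatives were DESeq2 1.42.0, limma 3.58.1 (voom with quality weights), other scalings and filters, sex as a covariate, females only, a replicate block and leaving out each library. The scripts were tested on simulated data. Log2 CPM of single genes for permutation tests and correlations used a prior count of 2. Marker sums and the ratios to the RPE marker sum were put on a log2 scale without a prior count. Gene symbols, lengths and coordinates come from GENCODE vM39 (GRCm39), and promoter sequences from RefSeq (GRCm38.p6). Genes named beside the members are direct partners and the 3 genes with the smallest p in each list, or those called, and the 3 genes most correlated with each member. Members, gene lists and marker lists were chosen with earlier results of these data known, and the partner genes were written out after the files were open.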

Additional observations from a re-analysis of the deposited data

Results flagged for a closer look

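Dixon's test over the 4 WT libraries was applied to 66 genes, and chance flags about 1 in 20 groups. In 5 genes 1 WT library stood apart, with a gap to its nearest neighbour above Dixon's 95% critical share of the group's range. *Enpp3* was lowest in WT F3 (1.20 CPM, the others 5.59 to 6.50; gap 0.8295 of the range), which is also the library with the lowest ocular surface marker sum. *Lpar1* was highest in WT F1 (37.2 CPM, the others 15.6 to 19.1; 0.8365), and so was *Sfrp2* (10.8 CPM, the others 3.93 to 4.34; 0.9399). *Ptges* (210 CPM, the others 144 to 153; 0.8656) and *Ttr* (18326 CPM, the others 11704 to 12485; 0.882) were highest in WT M1, the only WT male. None of the 10 members was flagged.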

How the results depend on the processing

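The 10 members kept the direction of their edgeR fold change under every alternative test, scaling, filter and left-out library. The number of genes called across all genes was 40 with the main settings, 1822 with DESeq2, 124 with voom, 78 with no filter, 197 with sex as a covariate, 96 in the females only, 0 with the replicate block, and 11 to 485 when 1 library was left out. The members called numbered 1, against 4 with DESeq2, 0 with the replicate block and 0 to 2 with 1 library left out. Members with an unadjusted p under 0.05 were 3, beside 4089 of 16990 genes. They were 5 with DESeq2 (4758 of all genes), 6 with voom (5219) and 7 with sex as a covariate (4771). They were 7 in the females only (3769 of 17434 genes) and 7 with the replicate block (2929 of 17378). With 1 library left out they were 2 to 7, beside 2461 to 4789 genes. *Igfbp2* is the member lost with the replicate block (edgeR adjusted p = 0.0685), a fit on 4 libraries in 2 same-numbered pairs. Within these pairs the deviations of log2 CPM from the group means had correlations of only 0.146 and 0.243. In the other pairs of a WT and an *LC3b-/-* library they ran from −0.500 to 0.534, and the labels name no pairing. The cause of the lost call was not tested. Relative to the summed RPE markers the sign turned for *Ptgds* (0.21), *Bmp4* (0.20), *Cst3* (0.39), *Vegfa* (0.35) and *Sfrp5* (0.42), as the construction of that ratio allows. The direction of some partner genes also turned: *Ctsb* was −0.064 in the females only and −0.0925 with the replicate block, *Igfbp7* −0.0746 and −0.11, *Igfbp4* −0.33 and *Ptgs2* −0.18 (0.93 in all libraries, 0.0985 without *LC3b-/-* M) in the females only, the cause not tested. With 1 library left out, *Ctsb* ran from −0.12 to 0.14, *Igfbp4* from −0.12 to 0.91, *Igfbp7* from −0.0462 to 0.34 and *Lpar1* from −0.46 to 0.15. Of 894 values for 56 partner genes under the alternatives, 851 stayed on the side of the threshold and in the direction first found, and 32 passed a threshold missed before. Of 170 such values for the members, 158 stayed, 4 passed and 3 (all *Igfbp2*) were lost. *Frzb* has the fewest counts of the members.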
